A study of Mus musculus with 4 samples.

Results

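The fatty acid binding protein family was followed in mouse testis through 6 genes, chosen by their symbols: Fabp3, Fabp4, Fabp5, Fabp7, Fabp9 and Fabp12. All 6 were among the 55450 genes counted. The study sequenced single cells from dissociated testes of mice under a high-fat diet (HFD, 2 libraries) and under the regimen labelled ND (2 libraries, titled Health). The tissue was digested with collagenase IV, dispase II and DNase I and captured with droplet 3' chemistry (v3), in which unique molecular identifiers (UMIs) count captured transcripts. Strain, age, genotype, diet composition and duration were not given in the sources used here. The labels also do not tie each library to its own mouse, so p-values measure the spread between libraries, which may be technical.

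FABPs are small cytoplasmic proteins that fold into a barrel around a long-chain fatty acid or a related lipid, and carry it to membranes, mitochondria, lipid droplets or nuclear receptors. The members are named for the tissues where they were first found abundant: heart (FABP3), adipocyte (FABP4), epidermis (FABP5), brain (FABP7) and testis (FABP9), with FABP12 also described in germ cells. Testis makes steroid hormones from cholesterol in Leydig cells, and its germ cells remodel their membrane lipids as spermatids elongate.

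The members are related but not near-identical in sequence, while reads from near-identical genes can be hard to assign. Below are the first 60 coding bases of each member, from the GENCODE M21 transcripts, with the 11 bases shared by all 6 in capitals.
Fabp3: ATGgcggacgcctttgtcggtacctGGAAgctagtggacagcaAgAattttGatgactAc
Fabp4: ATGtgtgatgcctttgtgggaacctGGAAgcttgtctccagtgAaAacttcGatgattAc
Fabp5: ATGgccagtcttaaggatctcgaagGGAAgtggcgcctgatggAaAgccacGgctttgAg
Fabp7: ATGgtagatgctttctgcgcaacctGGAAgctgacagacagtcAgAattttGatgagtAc
Fabp9: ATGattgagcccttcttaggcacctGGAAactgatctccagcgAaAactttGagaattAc
Fabp12: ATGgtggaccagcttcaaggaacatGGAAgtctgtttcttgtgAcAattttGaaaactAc
Over the whole coding sequences the 15 pairs of members were 55.4% to 66.7% identical, with a median of 60.1%. The longest run of bases that any pair shared was 20, between Fabp3 and Fabp7. A pseudogene was far closer: Fabp3-ps1, a processed copy of Fabp3, differed from the Fabp3 coding sequence at 3 of 402 positions (A40T, C297T and G334A, counted from the first coding base of Fabp3), a 99.3% identity. A stretch that holds a pair of these differences is shown from coding position 285 to 344, with the differing bases in capitals.
Fabp3: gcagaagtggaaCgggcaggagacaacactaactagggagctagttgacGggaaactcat
Fabp3-ps1: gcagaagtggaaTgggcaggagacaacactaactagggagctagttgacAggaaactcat
The pseudogene was given 1496 UMIs over the 4 libraries, most of them outside the Leydig-like cells. It had 114 UMIs in Leydig-like cells, against 82137 of Fabp3, but 435 against 2538 in pachytene-like and 50 against 1033 in elongating-spermatid-like cells. How the counting software assigned reads to Fabp3 or the pseudogene was not tested.

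In the GRCm38/mm10 annotation 4 of the members lie within one stretch of chromosome 3, from 10012548 to 10301183 (289 kb), with their relative Pmp2 between them. Fabp5 (ENSMUSG00000027533, 10012548 to 10016607) is on the plus strand. Fabp9 (ENSMUSG00000027528, 10193621 to 10197283), Fabp4 (ENSMUSG00000062515, 10204088 to 10208576) and Fabp12 (ENSMUSG00000027530, 10244209 to 10301183) are on the minus strand. Fabp3 (ENSMUSG00000028773) lies on chromosome 4 from 130308595 to 130315463, plus strand. Fabp7 (ENSMUSG00000019874) lies on chromosome 10 from 57784881 to 57788450, also on the plus strand, and the pseudogene on the same chromosome from 86731987 to 86732388. By the mean level of whole classes, Fabp5 was highest in Leydig-like cells, Fabp9 and Fabp12 in spermatid-like cells, and Fabp4 in fibroblast-like cells on 7 UMIs.

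The libraries held 13561 to 15290 barcodes and 143748262 to 154221188 UMIs, and 13122 to 14467 cells per library were kept. Of 57498 barcodes, 339 occurred in 2 libraries and none in more. Clusters were named from marker genes as 10 classes, each called "like" its type, and the genes of the FABP family took no part in clustering or naming. The class called pachytene-like, above and below, stands for pachytene and later spermatocytes. Its cluster 15 had Ccnb1, Plk1 and Ccna1 among its leading genes, and its cluster 16 had Cdk1, Aurka and Ccna1. Clusters that held 55.8% to 59.2% of the cells met no naming rule and stayed unnamed, among them 1 of 43 cells with endothelial markers, and no cluster was named peritubular myoid. Germ-cell transcripts were present in every class. The elongating-spermatid markers, among them protamines and transition proteins, reached 4898 to 7026 CPM (UMIs per 1000000 of the summed UMIs) in the Leydig-like class. They reached 75270 to 90180 CPM in the Sertoli-like class. Levels below are CPM per library of counts summed over the cells of a class. Intervals and limits cover counting error only.

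Fabp3, a carrier of long-chain fatty acids best known from heart muscle, was concentrated in the Leydig-like cells. Its level there was 11012 and 11629 CPM in the HFD libraries and 11546 and 11085 CPM in the ND libraries, or 11318 ± 315 CPM (SD, n = 4 libraries). The next class, fibroblast-like, stood at 223 CPM, so the Leydig-like level was 50.8 times higher, and the libraries of these classes did not overlap. All 1177 Leydig-like cells carried at least 1 Fabp3 UMI. Thinned shares, here and below, are over cells thinned to 2000 UMIs, with shallower cells left out. Thinned, the share was 99.9% of 1142 Leydig-like cells, against 8.05% of 174 lymphocyte-like cells, which should lack the gene (9.90% unthinned; median depths 6065 and 2112 UMIs). In the median Leydig-like cell Fabp3 made up 1.09% of all UMIs, with a middle range from 0.797% to 1.39%. Cells with little Fabp3 were rare: 17 of the 1177 held under 0.2% and 36 at least 2%. The Leydig-like class gave 80.9% and 84.6% of all Fabp3 UMIs in the HFD libraries and 90.7% and 88.9% in the ND libraries, from 1.60% to 2.65% of the cells.

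**Figure D1:**
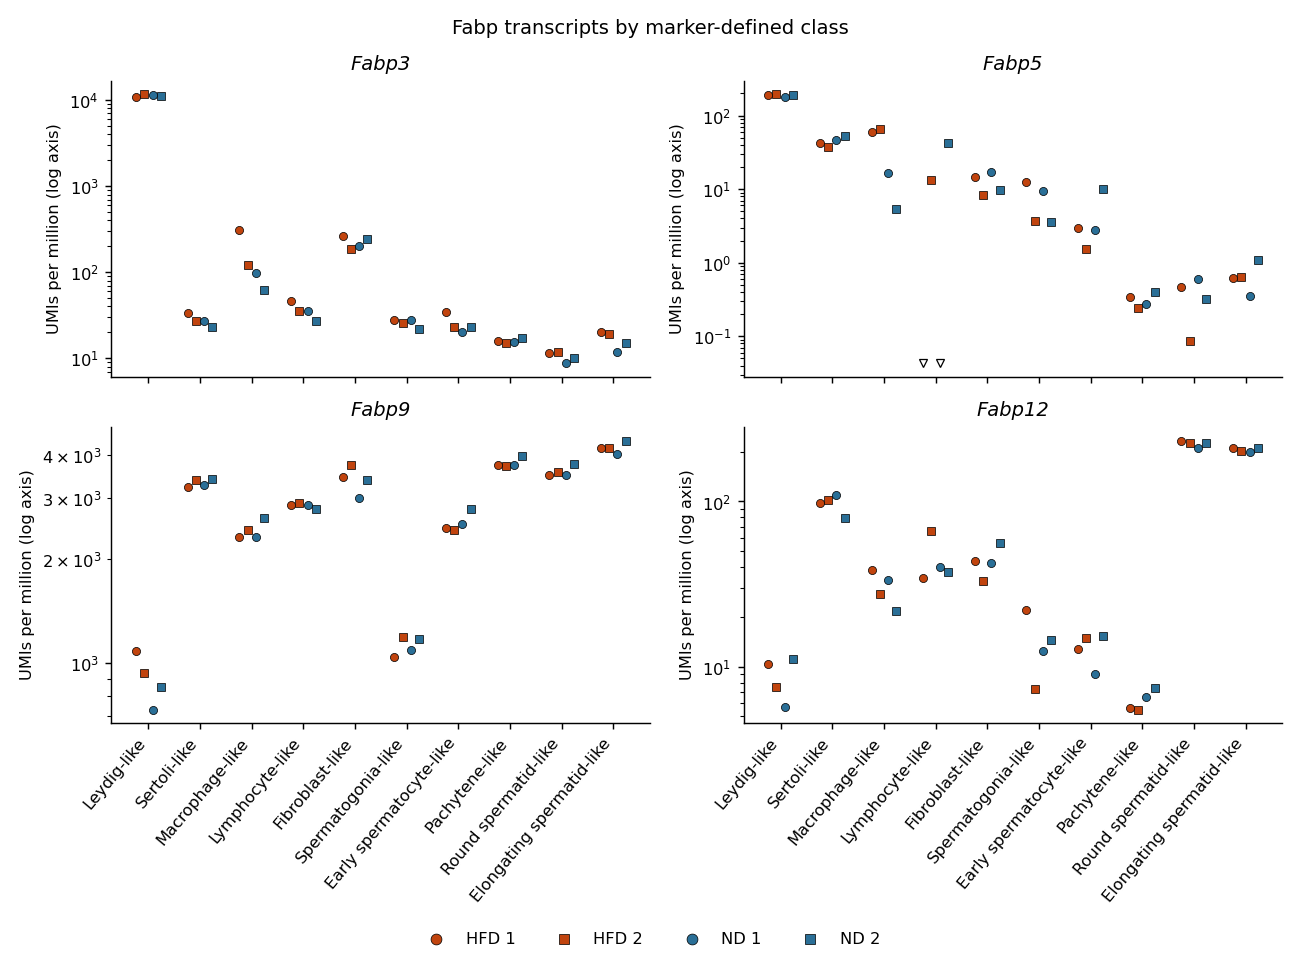
Level of Fabp3, Fabp5, Fabp9 and Fabp12 in each of the 10 named classes, in CPM of summed UMIs on a log axis, 1 point per library coloured by group, and open triangles at the bottom edge for libraries with 0 UMIs. Fabp3 stands between 11012 and 11629 CPM in the Leydig-like class, Fabp12 is highest in the spermatid-like classes, and Fabp9 is found in all 10.

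Outside the Leydig-like class Fabp3 was low, and part of the ordering could not be resolved. After the fibroblast-like class came macrophage-like (147 CPM), lymphocyte-like (36.0), Sertoli-like (27.8), spermatogonia-like (25.9), early-spermatocyte-like (25.4), elongating-spermatid-like (16.7), pachytene-like (16.0) and round-spermatid-like (10.6). Neighbours in this order overlapped between libraries except Leydig-like with fibroblast-like, macrophage-like with lymphocyte-like and pachytene-like with round-spermatid-like. The classes from Sertoli-like on had means below that of lymphocyte-like cells, which should lack the gene. The part of free RNA in these low levels was not tested. Fabp3 was high beside the Leydig markers in the fibroblast-like class: 1.88 to 2.42 Fabp3 UMIs per UMI of the 6 Leydig markers, against 0.551 to 0.727 in the Leydig-like class itself. The ratio was also above the Leydig-like range in pachytene-like (1.11 to 1.52) and macrophage-like cells (0.854 to 1.38), and in lymphocyte-like cells (0.455 to 2) it overlapped with both. In single fibroblast-like cells 38.8% had a Fabp3 UMI (37.1% thinned, median depth 1977), above the 9.90% of lymphocyte-like cells (8.05% thinned). Within that class the level was uneven, at 594 CPM in cluster 25.1 and 518 CPM in cluster 25.2. The unnamed cluster 23, of 303 cells with Leydig markers at a lower depth, had 1076 and 1438 CPM in the HFD libraries and 955 and 1174 CPM in the ND libraries, and 87.8% of its cells had a UMI (83.1% thinned).

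Fabp5, a fatty acid carrier known from skin, fat and immune cells, was also highest in the Leydig-like cells when whole classes were compared. Its level there was 191 and 193 CPM in the HFD libraries and 178 and 188 CPM in the ND libraries, or 188 ± 6.82 CPM (SD, n = 4 libraries). A Fabp5 UMI was seen in 695 of the 1177 cells (59.05%, 30.8% thinned), against 0.737% of pachytene-like cells (0.0777% thinned), the class with the lowest level (median depths 6065 and 23550 UMIs). Leydig-like cells gave 61.9% to 70.4% of all Fabp5 UMIs and Sertoli-like cells 12.5% to 14.98%. In the Sertoli-like class, the nurse cells of the germ line, the mean level was 44.9 CPM and 15.1% of cells had a UMI (8.78% thinned). This came unevenly from its clusters: cluster 12.7 stood at 356 CPM and cluster 12.8 at 237 CPM, while the other 7 ranged from 13.1 to 77.3 CPM. Clusters 12.7 and 12.8, of 67 and 42 cells, thus lay above the 188 CPM of the Leydig-like class. From the Leydig-like class the order went on through Sertoli-like, macrophage-like (37.1 CPM), lymphocyte-like (14.1) and fibroblast-like (12.4) to spermatogonia-like (7.29) and early-spermatocyte-like (4.31) cells, and the 3 later germ-cell classes lay between 0.316 and 0.678 CPM. Neighbours overlapped except Leydig-like with Sertoli-like and early-spermatocyte-like with elongating-spermatid-like cells.

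Fabp9, the testis FABP, was abundant in every class, and its 3 highest levels were in germ-cell classes. The mean level was 4199 ± 152 CPM (SD, n = 4 libraries) in elongating-spermatid-like cells, 3794 in pachytene-like and 3573 in round-spermatid-like cells. Fibroblast-like (3390), Sertoli-like (3322) and lymphocyte-like (2850) cells stood above early-spermatocyte-like (2545), macrophage-like (2421), spermatogonia-like (1120) and Leydig-like (899) cells. Libraries of neighbours in this order did not overlap at 4 steps: elongating-spermatid-like to pachytene-like, Sertoli-like to lymphocyte-like, lymphocyte-like to early-spermatocyte-like and macrophage-like to spermatogonia-like. At least 98% of the cells had a Fabp9 UMI in every class, 99.4% of lymphocyte-like cells included (98.3% thinned), which should lack the gene. In the somatic classes, and in the early-spermatocyte- and spermatogonia-like classes whose levels lie below the lymphocyte-like level, free RNA and expression of Fabp9 therefore cannot be told apart. Set against 1000 UMIs of the elongating-spermatid markers, Fabp9 stood at 1423 to 1826 in pachytene-like cells, which are not yet making protamines, at 165 to 184 in round-spermatid-like and at 23.4 to 25.7 in elongating-spermatid-like cells. The somatic ratios lay between these, at 142 to 190 in Leydig-like and 132 to 228 in macrophage-like cells.

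Among single germ-cell clusters Fabp9 was lowest in the spermatogonia-like cluster 11.5, at 1120 CPM. The early-spermatocyte-like clusters 11.3 and 11.1 held 1910 and 2234 CPM, and the unnamed cluster 20 held 4022 CPM. Of the elongating-spermatid-like clusters, cluster 5 held 3240 CPM and cluster 0 held 5796 CPM. Pachytene-like cells gave 33.1% and 33.3% of all Fabp9 UMIs in the HFD libraries and 25.7% and 26.4% in the ND libraries, which moved with their share of all UMIs (32.5% and 32.9%, against 24.9% and 25.7%).

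Fabp12, a member described from germ cells of the testis, was highest in the spermatid-like classes. It stood at 224 ± 9.58 CPM (SD, n = 4 libraries) in round-spermatid-like cells and 206 CPM in elongating-spermatid-like cells, classes whose libraries overlapped. A Fabp12 UMI was seen in 92.2% of round-spermatid-like cells (35.4% thinned, median depth 12860) and in 63.0% of elongating-spermatid-like cells (32.0% thinned, median depth 5384). In lymphocyte-like cells the share was 8.95% (7.47% thinned). The share in pachytene-like cells, 13.3%, fell to 1.71% after thinning, below the lymphocyte-like share, and the part of free RNA in it was not tested. Sertoli-like cells held 96.98 CPM, but Fabp12 there was 1.05 to 1.24 per 1000 elongating-marker UMIs, near the 1.15 to 1.24 of elongating-spermatid-like cells and below the 9.96 to 11.9 of round-spermatid-like cells. Lymphocyte-like (44.6), fibroblast-like (43.6), macrophage-like (30.2), spermatogonia-like (14.04), early-spermatocyte-like (13) and Leydig-like (8.70 CPM) cells followed, each overlapping with the next. Pachytene-like cells had the lowest mean, 6.28 CPM. Only the Sertoli-like class did not overlap with either neighbour, elongating-spermatid-like above it and lymphocyte-like below it.

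**Figure D2:**
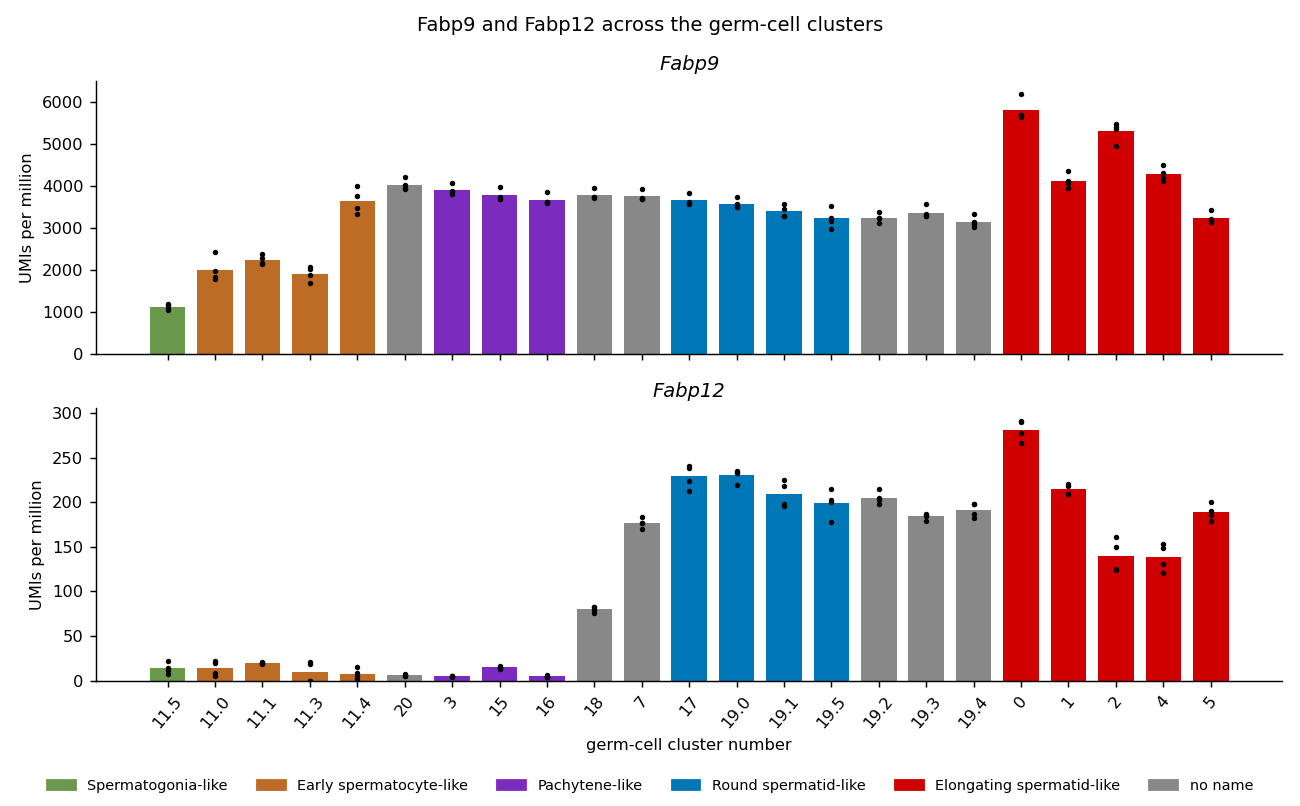
Level of Fabp9 and Fabp12 in the germ-cell clusters, in CPM, with bars for the mean of the 4 libraries and dots for single libraries. Fabp12 stays at 4.77 to 14.9 CPM in clusters 3, 16, 20 and 15 and reaches 281 CPM in cluster 0, while Fabp9 ranges from 1120 CPM in cluster 11.5 to 5796 CPM in cluster 0.

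The step in Fabp12 lay between spermatocyte clusters and spermatid clusters. The pachytene-like clusters 3 and 16 held 4.87 and 4.77 CPM, and the unnamed clusters 20, 18 and 7 held 5.98, 80.0 and 177 CPM. The round-spermatid-like clusters 17 and 19.0 held 229 and 230 CPM. Among elongating-spermatid-like clusters the level ranged from 138 CPM in cluster 4 to 281 CPM in cluster 0. Clusters were described and not tested against each other, since they were made from the same cells.

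Fabp4, the adipocyte FABP and a marker of fat and capillary cells, and Fabp7, the brain FABP, were near the limit of detection. Fabp4 had 14 and 15 UMIs in the HFD libraries and 19 and 16 in the ND libraries, 64 in all. Its highest mean level, 6.06 CPM, was in fibroblast-like cells, on 1 and 2 UMIs under HFD and 0 and 4 under ND. It overlapped there with macrophage-like cells. The 4 Fabp4 UMIs in macrophage-like cells, a cell type that can express it, all came from 1 cell of HFD 1. No Fabp4 UMI was found in the Sertoli-, lymphocyte-, early-spermatocyte- or spermatogonia-like class, where a count of 0 allows up to 1.75 to 2.02, 11.5 to 16.1, 1.99 to 2.97 and 9.35 to 11.04 CPM per library. Fabp7 had 33 and 34 UMIs in the HFD libraries and 27 and 13 in the ND libraries. Of its 107 UMIs 39 were in round-spermatid-like (14 and 11 under HFD, 10 and 4 under ND) and 23 in elongating-spermatid-like cells. It had none in the macrophage-, lymphocyte-, fibroblast- or spermatogonia-like class, which allows up to 10.4, 16.1, 12.7 and 11.04 CPM in the library of lowest depth.

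The genes whose levels over the 10 classes were most like each member were ranked by Pearson's r of log2(CPM + 1) among 12305 genes. The points share libraries and free RNA, and the values are a description. Bhmt (r = 0.993), Amy1 (0.992) and Apoc1 (0.989) were closest to Fabp3. Mcee (0.983), Echs1 (0.982) and Vdac1 (0.981) were closest to Fabp5. Gstt4 (0.997), Capza3 (0.996), which encodes a capping protein subunit of spermatids, and Spata19 (0.996) were closest to Fabp12. For Fabp9 these were Znrd1as (0.984), Spata33 (0.979) and Smim24 (0.977). For Fabp4 (Ahnak2, Ampd3 and Creb5, from 0.993 to 0.967) and Fabp7 (Inpp5j, Gm40271 and 4933417G07Rik, from 0.961 to 0.955) the ranking rests on few UMIs.

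Diet was then compared in the testis as a whole, over all kept cells of a library. Fabp3, Fabp5 and Fabp12 were lower under HFD and Fabp9 was near equal. In this comparison 34.3% of all 25470 genes tested passed the threshold (adjusted p under 0.05, 18.9% lower and 15.3% higher), and 3 of the 6 members did, all 3 lower. Fabp3 stood at 144 and 147 CPM in the HFD libraries and 203 and 199 CPM in the ND libraries. The groups did not overlap, and Fabp3 fell by 0.46 on the log2 scale (SE 0.038, adjusted p = 2.1e-06, edgeR quasi-likelihood test with Benjamini-Hochberg adjustment, as for all adjusted p-values below). Fabp12 stood at 79.3 and 74.3 CPM under HFD and 91.96 and 95.04 CPM under ND, again without overlap, a log2 change of -0.28 (SE 0.045, adjusted p = 0.000335). For Fabp5, with 3.27 and 3.24 CPM against 4.04 and 4.62 CPM, the change was -0.41 (SE 0.090, adjusted p = 0.00297). Fabp9 had 3668 and 3665 CPM under HFD and 3619 and 3870 CPM under ND, which overlapped (log2 change -0.02, adjusted p = 0.684). Fabp4 (-0.34, adjusted p = 0.485) and Fabp7 (0.67, adjusted p = 0.123) did not pass on these small counts.

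In such sums, fewer cells of a type and less RNA per cell cannot be told apart, so the classes behind each member were set beside it. Leydig-like cells made up 1.60% and 1.76% of cells in the HFD libraries and 2.52% and 2.65% in the ND libraries. Without them, the direction for Fabp3 turned: the rest of the testis held 27.8 and 22.95 CPM under HFD and 19.1 and 22.6 CPM under ND, a log2 change of 0.27 (SE 0.085, adjusted p = 0.0247, with 29.7% of all genes past the threshold). Leaving out cluster 23 as well gave 23.8 and 21.3 against 18.1 and 20.6 CPM (0.21, adjusted p = 0.0259, with 29.8% of all genes). Fabp5 no longer passed without the Leydig-like cells (-0.24, adjusted p = 0.261). Fabp12 still did (-0.30, adjusted p = 0.00022). With the named classes weighted equally in every library, the Fabp3 change was 0.021 (limma, adjusted p = 0.961). That fit called 0 of 18024 genes (1709 at an unadjusted p under 0.05, none of the 5 members among them), so it cannot set the members apart. Round-spermatid-like cells, the class highest in Fabp12, gave 8.84% and 8.57% of all UMIs under HFD and 11.5% and 11.7% under ND.

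**Figure D3:**
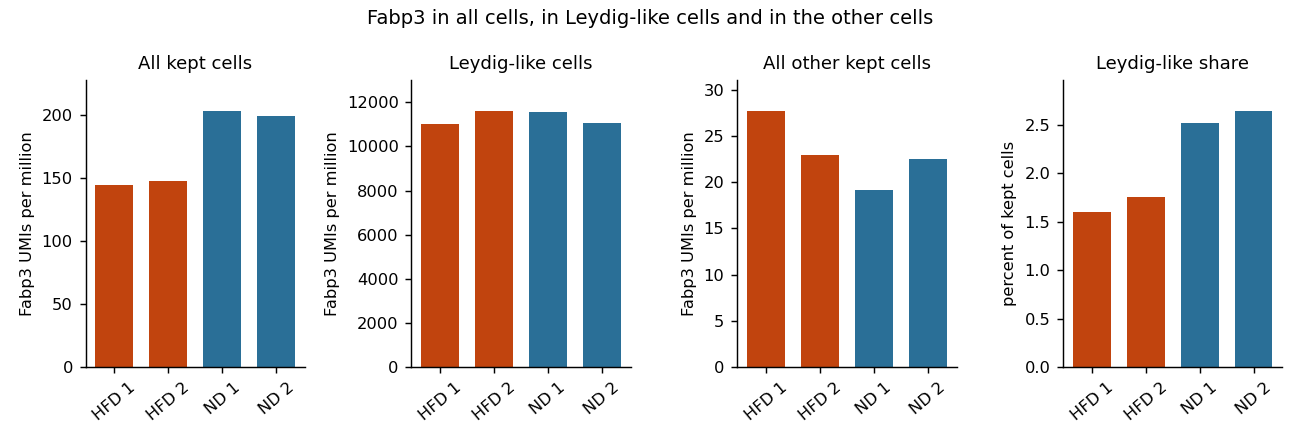
Fabp3 level in CPM per library over all kept cells, over the Leydig-like cells and over all other cells, and the Leydig-like share of kept cells in percent, with 1 bar per library from 0. The whole-testis bars are lower for HFD (144 and 147 CPM) than for ND (203 and 199 CPM), the Leydig-like bars lie between 11012 and 11629 CPM in all 4 libraries, and the share of Leydig-like cells is lower in both HFD libraries.

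Within the classes the members were tested where their counts were high enough, in 31 combinations of member and class over 9 classes: Fabp3 in 8, Fabp5 in 5, Fabp9 in 9, Fabp12 in 8, Fabp7 in 1 and Fabp4 in none. Of the 31, 4 passed the threshold, all higher under HFD, against 3.34% of all gene tests in these classes (1.42% higher). The 4 were Fabp9 in Leydig-like cells, Fabp3 and Fabp5 in macrophage-like cells and Fabp3 in elongating-spermatid-like cells. By DESeq2 none of the 4 passed, with 3 of them at an unadjusted p under 0.05, and Fabp3 in elongating-spermatid-like cells (unadjusted p = 0.00735) was given no adjusted p. In the whole testis Fabp3 and Fabp5 were lower under HFD, so the direction in these classes was the other way. Differences of a member's change between classes were tested over 21 pairs of classes, and 6 of 85 passed, against 0.268% of all genes. Every pair held the Leydig-, macrophage- or elongating-spermatid-like class, where a member had passed. The choice of pairs therefore partly sets which classes appear. It also favours the members over other genes, so their 6 of 85 cannot be compared with the 0.268%. The 6 are Fabp5, Fabp3 and Fabp9 differences that involve the macrophage-like or the Leydig-like class. For Fabp5 the Leydig-like minus macrophage-like difference was -2.54 on the log2 scale (SE 0.51, adjusted p = 0.00134).

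**Figure D4:**
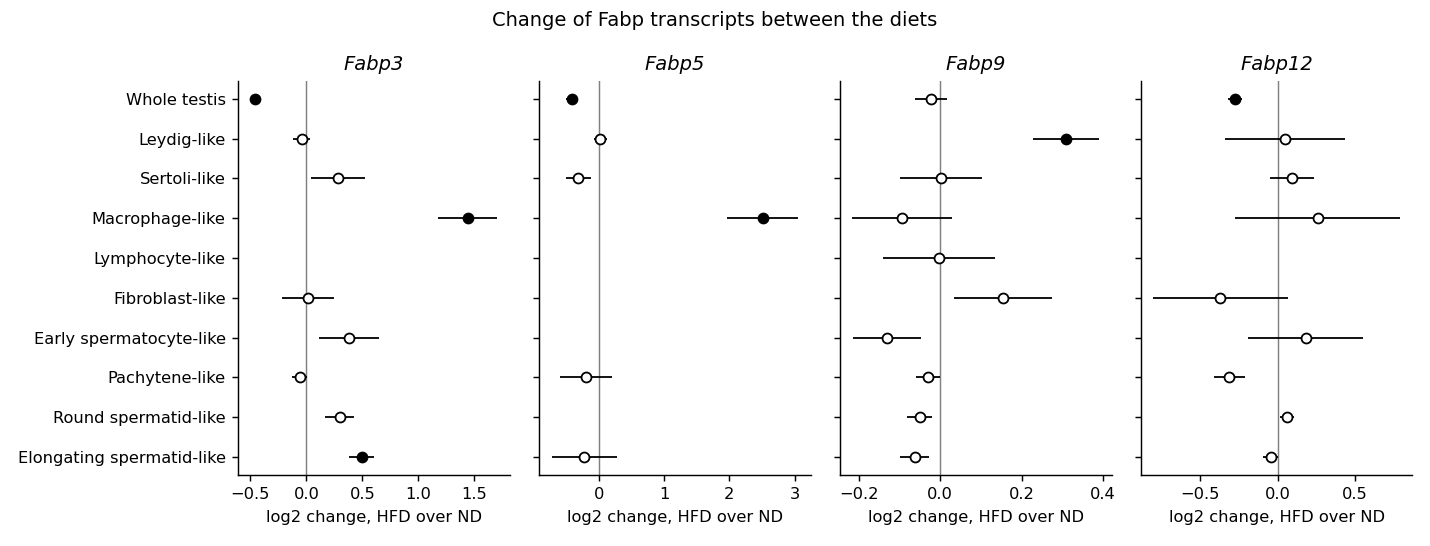
Change of each tested member under HFD against ND per class, as log2 fold change with its standard error, with filled points where the adjusted p was under 0.05. The macrophage-like points of Fabp5 (2.51) and Fabp3 (1.44) lie farthest from 0, and the Leydig-like points of Fabp3 (-0.04) and Fabp5 (0.03) lie near it.

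In the Leydig-like class, where 4.83% of all genes passed, neither Fabp3 nor Fabp5 passed. Fabp3, with the levels given above, had a log2 change of -0.04 (SE 0.075, adjusted p = 0.831), and the HFD libraries lay on either side of the ND libraries. Fabp5 had a change of 0.03 (SE 0.099, adjusted p = 0.932). The sum of the Leydig markers in this class stood at 16050 and 16000 CPM under HFD and 20940 and 17310 CPM under ND, without overlap. Per Leydig-marker UMI, Fabp3 stood at 0.686 and 0.727 under HFD and 0.551 and 0.640 under ND. The part of this marker shift in the members' changes was not tested. Fabp9 passed, at 1084 and 932 CPM under HFD and 732 and 848 CPM under ND. Its change was 0.31 (SE 0.082, adjusted p = 0.0175). Both HFD libraries were above both ND libraries, and the elongating-spermatid markers in the same class stood at 7026 and 4898 CPM under HFD and 4949 and 5994 CPM under ND. Leydig-like cells had the lowest Fabp9 level of all classes, and the part of free germ-cell RNA in this change was not tested. With called doublets kept the change was 0.014 (adjusted p = 0.991). The call was also lost in the gate on single cells (0.20, adjusted p = 0.104), with unnamed clusters joined (0.54, adjusted p = 0.151), without HFD 1 (0.20, adjusted p = 0.429), without ND 1 (0.22, adjusted p = 0.222), with the library number as a block (adjusted p = 0.184) and by DESeq2 (adjusted p = 0.0525).

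Macrophage-like cells gave the largest changes among the 31, on few UMIs, and 1.74% of all genes passed in this class. Fabp5 had 19 and 19 UMIs in the HFD libraries and 5 and 2 in the ND libraries, or 60.5 and 65.8 CPM against 16.7 and 5.42 CPM. The groups did not overlap, and the log2 change was 2.51 (SE 0.55, adjusted p = 0.000721). The UMIs were spread over cells: 16 of 88 cells of HFD 1 (18.2%, 95% Clopper-Pearson interval 10.8% to 27.8%) and 11 of 86 of HFD 2 (12.8%, 6.56% to 21.7%) had one. Under ND 5 of 109 cells (4.59%, 1.51% to 10.4%) and 2 of 108 (1.85%, 0.225% to 6.53%) had one. At 2000 UMIs per cell, with shallower cells left out, 8 of 68 (11.8%) and 7 of 69 cells (10.1%) had one under HFD, and 3 of 70 (4.29%) and 1 of 71 (1.41%) under ND. Both HFD shares lay above both ND shares, on few cells. At that depth the share was 2.30% in lymphocyte-like cells (4 of 174), whose level was 14.1 CPM and reached 43.0 CPM in ND 2, and 0.0777% in pachytene-like cells. The highest single cell held 3 and 5 Fabp5 UMIs under HFD and 1 and 1 under ND.

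Markers moved with this class, and Fabp5 is abundant in Leydig-like cells. The macrophage markers stood at 6680 and 7309 CPM under HFD and 9345 and 7821 CPM under ND, without overlap, and their part in the Fabp5 change was not tested. The sum of the Leydig markers in macrophage-like cells was 319 and 142 CPM under HFD and 70.0 and 48.8 CPM under ND, with 6, 6, 6 and 5 of the 6 markers detected. Insl3, a defining Leydig hormone, had 52, 10, 5 and 4 UMIs. When every macrophage-like cell with a Leydig-marker UMI was left out, 62, 64, 91 and 92 cells remained, and Fabp5 held 10 and 15 UMIs under HFD against 4 and 1 under ND (log2 change 2.80, SE 0.66, adjusted p = 0.00832, with 0.987% of all genes past the threshold). The direction was the same without any 1 library, with changes from 1.84 to 3.42, but the adjusted p rose to 0.189 without HFD 1, 0.195 without HFD 2 and 0.0912 without ND 2, and was 0.267 by DESeq2. In lymphocyte-like cells, the other leukocyte class, Fabp5 had 0, 3, 0 and 8 UMIs and was not tested.

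Fabp3 in macrophage-like cells behaved otherwise. It had 97 and 35 UMIs in the HFD libraries and 29 and 23 in the ND libraries, or 309 and 121 CPM against 96.7 and 62.3 CPM, a log2 change of 1.44 (SE 0.27, adjusted p = 2.62e-05). Of the 97 UMIs of HFD 1, 61 came from 1 cell that also held 64 UMIs of Leydig markers. Without the cells that had a Leydig-marker UMI the direction turned, at 71.2 and 37.8 CPM under HFD and 60.7 and 63.9 CPM under ND (-0.20, adjusted p = 0.993). Without HFD 1 the change was 0.58 (adjusted p = 0.855), and with called doublets kept it was 0.25 (adjusted p = 0.947).

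In elongating-spermatid-like cells, where 6.96% of all genes passed, Fabp3 was low, and its counts were higher under HFD. Its mean level of 16.7 CPM lay below the 36.0 CPM of lymphocyte-like cells, and 10.7% of cells had a UMI (3.97% thinned, median depth 5384), against 9.90% (8.05% thinned, median depth 2112). The part of free RNA in the difference was not tested. Fabp3 stood at 20.4 and 19.1 CPM in the HFD libraries and 11.9 and 15.2 CPM in the ND libraries, without overlap, a log2 change of 0.49 (SE 0.11, adjusted p = 0.0192). Leydig markers in the same cells were at 20.7 and 21.9 CPM under HFD and 18.9 and 21.9 CPM under ND. Without the cells that had such a marker, Fabp3 stood at 17.9 and 18.2 against 12.2 and 14.6 CPM (0.38, SE 0.11, adjusted p = 0.0360, with 7.63% of all genes past the threshold). In clusters 0, 1, 2 and 4 of this class both HFD libraries were above both ND libraries, and in cluster 5 they overlapped (12.9 and 13.6 against 9.76 and 12.98 CPM). The adjusted p rose to 0.0615 without HFD 1, 0.0617 without ND 1 and 0.0692 in the gate. The gate put 9940 to 11395 cells per library in its elongating class, most of those kept, so its value is not for elongating spermatids alone. Fabp12 in the elongating-spermatid-like cells had a change of -0.05 (adjusted p = 0.627).

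No member passed in the other 6 classes tested, by edgeR or by DESeq2. Of their 19 tests, 3 had an unadjusted p under 0.05 by edgeR and 0 by DESeq2. The background of calls was 0.0591% of all genes in Sertoli-like, 0.638% in lymphocyte-like, 0.284% in round-spermatid-like and 7.92% in pachytene-like cells, and 0% in fibroblast-like and early-spermatocyte-like cells. Fabp12 in pachytene-like cells stood at 5.63 and 5.498 CPM under HFD and 6.51 and 7.46 CPM under ND, a log2 change of -0.31 (SE 0.10, adjusted p = 0.0795). It passed with the library number as a block (adjusted p = 0.0408) and without ND 1 (-0.40, adjusted p = 0.00786). In round-spermatid-like cells Fabp12 had a change of 0.06 (adjusted p = 0.654), Fabp3 of 0.30 (adjusted p = 0.418) and Fabp7, on 39 UMIs, of 1.14 (SE 0.49, adjusted p = 0.406). Sertoli-like cells had changes of 0.28 for Fabp3 (adjusted p = 0.917) and -0.32 for Fabp5 (adjusted p = 0.812). Fibroblast-like Fabp3 was 261 and 189 CPM under HFD and 203 and 240 CPM under ND (0.02, adjusted p = 0.988). Without ND 1, where more genes passed in these classes (15.4% in pachytene-like, 3.34% in round-spermatid-like and 10% in elongating-spermatid-like cells), Fabp9 passed as lower in elongating-spermatid-like cells (-0.13, adjusted p = 7.45e-05), round-spermatid-like cells (-0.10, adjusted p = 0.00905), pachytene-like cells (-0.07, adjusted p = 0.0356) and the whole testis (-0.08, adjusted p = 0.0435).

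Genes that work with the family were counted in the same fits. Leydig-like cells were a smaller share of cells under HFD (1.60% and 1.76%) than under ND (2.52% and 2.65%). The part of this share in the whole-testis changes of the lists below was not tested. Of 9 other lipid-binding proteins of the family, 7 were tested in the whole testis, and the median of their log2 changes was -0.30, against -0.02 over all genes tested. Of 22 genes of fatty acid uptake and activation, 19 were tested in the whole testis, with 1 higher, 12 lower and a median of -0.26, where 15.3% of all genes were higher and 18.9% lower. Acsl3, an acyl-CoA synthetase, rose by 0.31, while its relative Acsl4 (-1.04), the transporter Slc27a4 (-0.71) and the scavenger receptor Cd36 (-0.69) had the largest falls of the list. In Leydig-like cells, with 17 of the list tested, a median of -0.20 and 4.83% of all genes past the threshold, Cd36 (343 and 380 against 446 and 435 CPM, -0.29, adjusted p = 0.0397) and Acsl4 (14.2 and 23.4 against 40.9 and 33.7 CPM, -0.99, adjusted p = 0.00443) were lower. In pachytene-like cells Acsl3 rose by 0.19 and Slc27a1 (-1.09), Acsl1 (-0.48) and Acsbg2 (-0.36) were lower among 15 tested, where 7.92% of all genes passed, and in elongating-spermatid-like cells Acsl1 alone passed among 12, at -0.15, where 6.96% of all genes passed.

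Of 14 nuclear receptors and partners that lipid carriers are known to serve, all were tested in the whole testis. The coactivator Ppargc1a (0.40), Rxrb (0.17) and the corepressor Ncor1 (0.13) were higher, Ppara (-0.31) and Rxra (-0.26) were lower, 5 of 14 where 34.3% of all genes were called, and the median was 0.04. None passed in any class by edgeR, with 3 of 57 tests at an unadjusted p under 0.05, or by DESeq2 (0 at an unadjusted p under 0.05). Of 22 genes of fatty acid storage, release and oxidation, 5 were higher and 9 lower in the whole testis, beside the same 15.3% and 18.9% of all genes, with a median of -0.18. Cpt1b (0.47), Mgll (0.34) and Dgat1 (0.26) were higher, and Cpt1a (-0.98), the entry enzyme of mitochondrial oxidation, Plin2 (-0.44), a lipid droplet coat protein, and Acadm (-0.44) were lower. Here too the part of the Leydig-like share was not tested. In Leydig-like cells 20 were tested, where 4.83% of all genes passed, and Cpt1a was lower (79.3 and 87.5 against 121 and 125 CPM, -0.56). Mgll rose by 0.20 in pachytene-like cells (18 tested, 7.92% of all genes past the threshold). It rose by 0.29 in elongating-spermatid-like cells (16 tested, 6.96% of all genes). Dgat2 was lower in these classes (-0.38 and -0.19). No gene of the 4 lists passed in the Sertoli-, macrophage-, lymphocyte-, fibroblast-, early-spermatocyte- or round-spermatid-like class by edgeR, where 12 of 154 tests had an unadjusted p under 0.05, and DESeq2 called 0 (3 at an unadjusted p under 0.05).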

How the data were processed

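The authors deposited, for each of 4 mouse testis libraries (2 HFD, 2 ND), UMI counts, not normalized, per gene and cell barcode, made with counting software version 3.0.2 per the file headers and build mm10 per the submitters' processing notes. Other steps of alignment and counting are not given in the sources used here. Libraries were grouped by their diet label. All 55450 gene identifiers matched GENCODE M21, whose transcripts gave the coding sequences. The members and the gene lists were chosen with earlier results of these data known.

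Cells under 200 genes or over 20% mitochondrial UMIs were left out. Doublets were called with Scrublet in scanpy 1.11.5 at an expected rate of 10%, which removed 421 to 853 barcodes per library. The rest were clustered (2000 variable genes, 30 components, 15 neighbours, Leiden resolution 1), without any gene of the FABP family, and clusters with high scores for more than 1 class were divided once more at resolution 0.5. A cluster took the class whose markers scored highest. Where all scores were low, it took the class with most markers among its leading genes. The pachytene-like clusters 3, 15 and 16 were named in this second way, with scores of 0.051, 0.134 and 0.335. Cluster 3 scored 0.132 for early spermatocytes. A cluster stayed unnamed where no class scored or led, where 2 classes scored alike, or where markers of another class led its genes. It also stayed unnamed where none of its own markers led its genes at a low depth or a low score, or where it was very small. Class definitions rest on rebuilt clusters.

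UMI counts were summed per library and class, in classes with at least 50 cells in every library, and tested over all genes with edgeR 4.0.16 (TMM, filterByExpr, quasi-likelihood, Benjamini-Hochberg). Spermatogonia-like cells, with 48 to 69 per library, were described only. CPM was computed from plain totals for the members and with TMM scaling for genes of the lists. The fit was checked on counts simulated with the same assumed spread for every gene, not one estimated from these libraries. Only genes above a minimum count were changed. In the Leydig-like class it recovered 59 of 98 genes changed by 1 log2 unit and 90 of 96 changed by 2, with 8 false calls. In the macrophage-like class it recovered 41 of 91 and 82 of 93, with 7 false calls. These recoveries depend on the assumed spread. Alternatives were DESeq2 1.42.0, other scaling and filters, each library left out, the library number as a block, a mitochondrial limit of 10%, doublets kept, a gate on single cells and equally weighted classes (limma 3.58.1). Added after seeing the data were fits without Leydig-like cells, without cells holding a Leydig-marker UMI and with unnamed clusters joined to the nearest class.

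All 6 members are reported. Of the lists, genes past an adjusted p of 0.05 whose HFD and ND libraries did not overlap were named, at most 3 in each direction per list and class by size of change. For each member the 3 most alike genes were named, among genes with at least 20 CPM in a class. Some results of the lists are not reported here.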

Additional observations from a re-analysis of the deposited data

Results flagged for a closer look

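The change of a member in one class was tested against its change in another, as an interaction term in edgeR over 21 pairs of classes, and 6 of 85 such differences passed an adjusted p of 0.05, against 0.268% of all genes tested over the pairs. Each pair held the Leydig-, macrophage- or elongating-spermatid-like class, where a member had passed within the class, and other pairs were not tested. This choice favours the members over other genes, so their 6 of 85 cannot be compared with the 0.268%. The sums of a library in 2 classes were treated as independent.

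For Fabp5, 2 of the 8 pairs with macrophage-like cells passed, and the other 6 did not. Its change in Leydig-like cells minus that in macrophage-like cells was -2.54 (SE 0.51, adjusted p = 0.00134), and for Sertoli-like minus macrophage-like cells it was -2.87 (SE 0.55, adjusted p = 0.00177), with both HFD libraries above both ND libraries in the macrophage-like class. For Fabp3 also 2 of 8 pairs with that class passed, at -1.52 for Leydig-like minus macrophage-like (SE 0.30, adjusted p = 0.000902) and 1.47 for macrophage-like minus pachytene-like cells (SE 0.27, adjusted p = 0.000944). These Fabp3 differences include the HFD 1 cell with 61 Fabp3 UMIs and 64 Leydig-marker UMIs.

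For Fabp9, 2 of 8 pairs with Leydig-like cells passed. The difference was 0.42 against round-spermatid-like (SE 0.093, adjusted p = 0.00729) and 0.45 against elongating-spermatid-like cells (SE 0.11, adjusted p = 0.0166). The part of free germ-cell RNA was not tested.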

How the results depend on the processing

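Over all members, 30 results of a gene in a class or the whole testis did not pass the threshold. Of their 348 alternative values, 341 also did not pass or had no adjusted p, whatever their direction. Of 7 results that passed, 62 of 87 alternative values passed in the same direction. In the whole testis 3 members passed, 3 to 5 with a library left out (5 without ND 1, where Fabp9 and Fabp7, at 1.29 with an adjusted p of 0.0122, joined) and 0 with equally weighted classes, a fit that called 0 of 18024 genes and in which Fabp5 (0.14), Fabp12 (0.053) and Fabp3 (0.021) turned direction. Fabp3 also turned without Leydig-like cells (0.27) and without cluster 23 too (0.21). Within classes 4 passed (3.34% of all genes), 0 to 6 with a library left out (0 without HFD 1, with 1.95% of all genes; 6 without ND 1, with 5.43%), 2 with doublets kept (1.94%), 0 in the gate (2.37%, 3 classes fitted, macrophage-like not among them) and 0 by DESeq2 (0.494%), which gave Fabp3 in elongating-spermatid-like cells no adjusted p. Fabp3 in macrophage-like cells turned to -0.20 without cells holding Leydig markers. With doublets kept, Leydig-like Fabp3 was 10044 CPM and Fabp5 165 CPM. The gate put 9940 to 11395 cells per library in its elongating class, against 1956 to 2428 by clusters. Fabp9 in that gated class was 3668 CPM. It holds most of the kept cells, so its values are not those of elongating spermatids alone. The causes were not tested.

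The library numbers gave no pairing: deviations of same-numbered libraries correlated at 0.038 in the whole testis and -0.087 to 0.14 in classes. With the number as a block, 3 members passed in the whole testis (Fabp3 -0.46) and 4 within classes, with Fabp12 in pachytene-like cells in place of Fabp9 in Leydig-like cells. Fabp4 and Fabp7 rested on 64 and 107 UMIs in all, and the part of depth in these low counts was not tested.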

Other observations

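Crabp1, a relative of the FABPs that binds retinoic acid, stood at 226 and 210 CPM in the spermatogonia-like cells of the HFD libraries and 249 and 292 CPM in those of the ND libraries, while the next class, lymphocyte-like, was at 1.34 CPM on 1 UMI. None of the 6 members was highest in the spermatogonia-like class.

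Pmp2, the myelin member that lies between Fabp5 and Fabp9 on chromosome 3, had 39 UMIs in all 4 libraries together and none in any somatic class. Fabp1, the liver FABP, had 444 UMIs and stood at 2.13 CPM in the unnamed germ-cell cluster 18, at 1.65 CPM in round-spermatid-like cells and had no UMI in Leydig-like cells.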
